A study of Mus musculus with 21 samples.

Results

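HEL pos B cells sorted from Peyer's patches were set against HEL pos B cells sorted from spleen across every gene of a raw count table from bulk RNA sequencing. The tissue and sort labels gave 6 libraries of the 21 in the series, 3 from Peyer's patch and 3 from spleen. Both groups came from C57BL/6 mice aged 8 to 12 weeks, and the labels named no drug or other agent for either. In each tissue 1 library was labelled Pool and the others 392 and 399, and the labels did not say whether 392 and 399 were single mice. The p-values below therefore measure spread from library to library, part of which may be technical. HEL and the sort were not explained further in the labels. The other libraries used from these tissues were 3 per tissue of BCL2 HEL pos cells and 1 pool per tissue of HEL neg cells. The fit behind the p-values also held 3 HEL pos and 3 BCL2 HEL pos libraries from mesenteric nodes (labelled mLNs), which added to the estimate of the spread. BCL2 HEL pos cells gave the same tissue contrast in a second set of libraries.

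Peyer's patches are clusters of B cell follicles set into the small intestine, beneath an epithelium that passes gut antigen and microbial products to the B cells under it. B cells there live close to dietary metabolites, retinoic acid and TGF-beta, and many are drawn into IgA responses. A B cell that receives antigen signals with T cell help normally raises Myc, builds ribosomes and membranes, and divides. Antigen signals without help leave it in a restrained state in which feedback phosphatases, inhibitory receptors and ubiquitin ligases are engaged.

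Total counts assigned to genes were 5751055 to 6740388 in Peyer's patch HEL pos libraries and 6578763 to 8495438 in spleen HEL pos libraries. At these depths 3 counts in a library corresponded to 0.335 to 0.517 CPM (counts scaled to a TMM-adjusted library total of 1000000). Peyer's patch libraries resembled each other less than spleen libraries did, with Spearman correlations across genes of 0.954 to 0.968 in Peyer's patch and 0.975 to 0.978 in spleen. On the first principal component, which held 48.9% of the variance, Peyer's patch 399 lay at -58.5, Pool at -29.0 and 392 at -13.2, against 30.1 to 35.8 in spleen. All 10 B cell markers looked at were expressed in both tissues, and 7 of them fell while 0 rose. Their summed level was 25991 to 32253 CPM in Peyer's patch, against 39517 to 40281 CPM in spleen. Among them Cd79a, the Ig-alpha chain of the antigen receptor, averaged 4902 CPM in Peyer's patch and 7541 CPM in spleen, and Ms4a1, which encodes CD20, averaged 1900 CPM in Peyer's patch and 4443 CPM in spleen. Transcripts of small-intestinal enterocytes summed to 814 CPM in Peyer's patch Pool, 269 CPM in 392 and 914 CPM in 399, against 68.2, 27.8 and 51.7 CPM in spleen Pool, 392 and 399. Summed T cell markers were 163 to 217 CPM in Peyer's patch and 299 to 380 CPM in spleen, nearly all of it Cd2, while Cd3e averaged 2.85 CPM in Peyer's patch and 0.534 CPM in spleen. Summed granulocyte markers were 9.23 to 26.1 CPM in Peyer's patch and 66.1 to 217 CPM in spleen. Goblet and Paneth cell markers summed to 23.7 to 506 CPM in Peyer's patch and 0.756 to 2.36 CPM in spleen. Macrophage and monocyte markers summed to 67.4 to 185 CPM in Peyer's patch and 45.2 to 148 CPM in spleen, so these ranges overlapped. The part of these other cells, and of the lower B cell marker level, in the differences below was not tested. In bulk libraries, fewer cells of a type and less RNA per cell cannot be told apart.

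Of 11419 genes tested, 1756 (15.4%) passed edgeR's quasi-likelihood test at an adjusted p below 0.05. Of these, 907 were higher in Peyer's patch (7.94% of genes tested) and 849 were lower (7.43%). The change exceeded 2-fold for 717 genes (6.28%), 409 of them higher and 308 lower. Peyer's patch and spleen libraries did not overlap for 2958 genes (25.9%), of which 1619 also passed the test. The 10 highest and 10 lowest changes named below were drawn from these 1619 genes, so their lack of overlap follows from the choice. Over all genes tested the median log2 difference was 0.02. The 42 programme lists used here, which cover processes other than the Egr and Nr4a, marginal zone and enterocyte genes, held 1089 distinct tested genes, and 345 of them (31.7%) passed. Counts of called members below are to be read beside the 7.94% higher and 7.43% lower over all genes tested. In 8 lists every call was higher in Peyer's patch, led by ribosome biogenesis. In 4 every call was lower, led by interferon-stimulated genes and by a list of annexins, S100 genes and other genes. Restricting the fit to the 6 compared libraries left 800 calls, and leaving out Peyer's patch 399 and Pool together left 640.

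**Figure D1:**
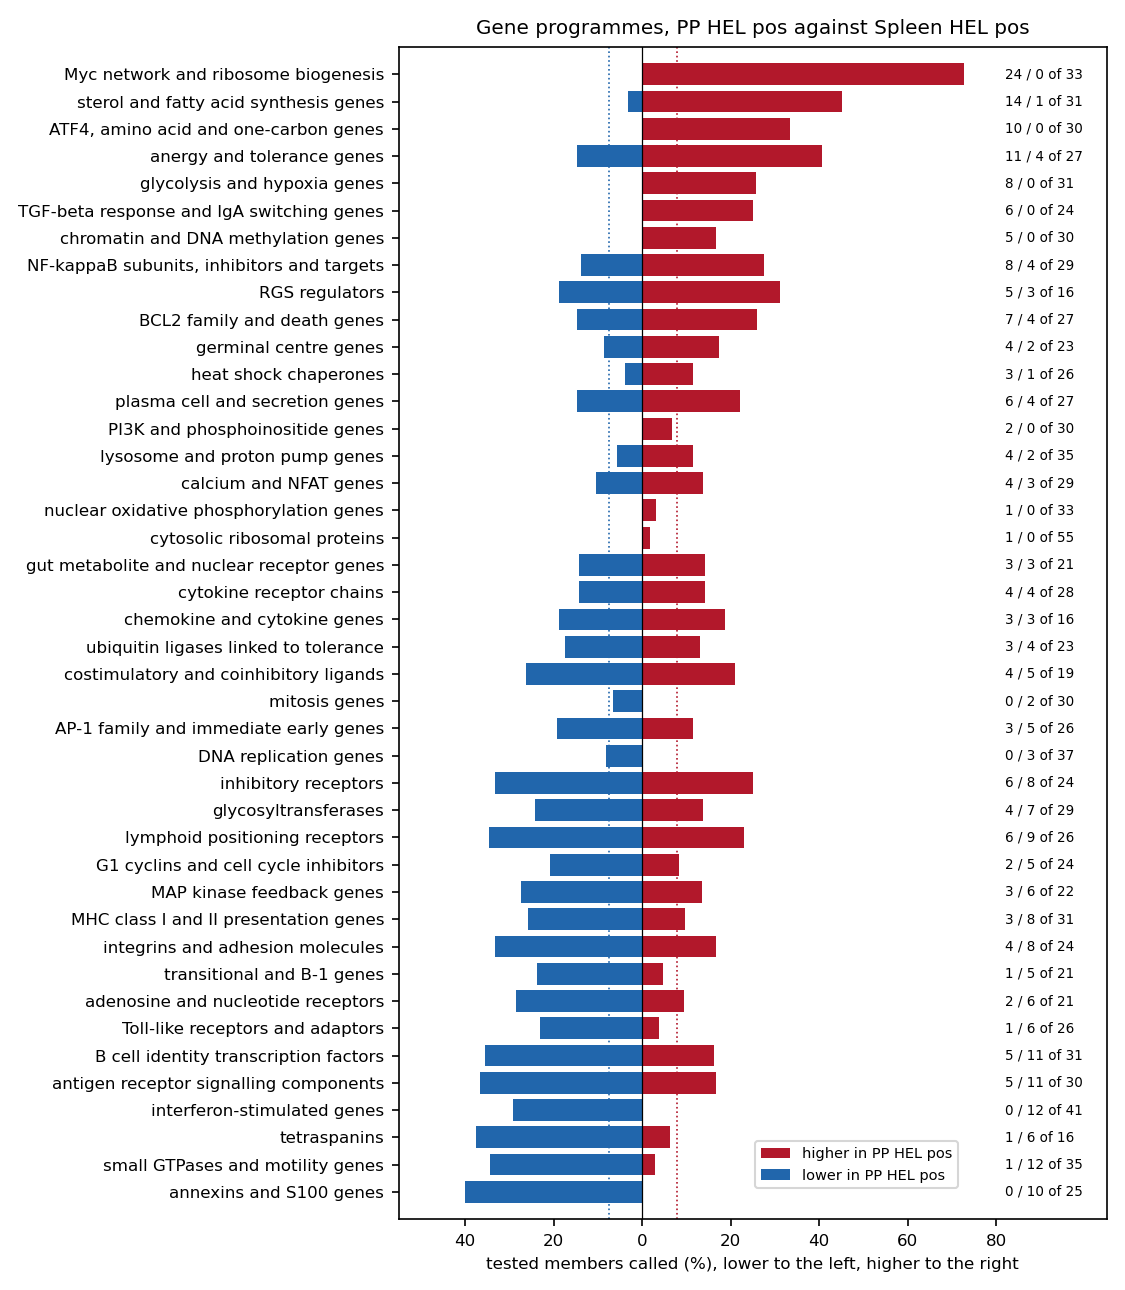
Share of tested members of each of the 42 programme lists that passed edgeR's quasi-likelihood test, higher in Peyer's patch HEL pos cells to the right and lower to the left, in percent, with the counts printed beside each list. Dotted lines mark the 7.94% and 7.43% of all tested genes called higher and lower. The ribosome biogenesis and sterol lists reach far past the first of these. The annexin and S100 list, the interferon-stimulated list and the motility list reach past the second.

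The broadest higher group was the growth programme driven in many cells by Myc. Of 33 tested genes of the Myc network and ribosome biogenesis, 24 rose in Peyer's patch HEL pos cells and 0 fell, with a median log2 difference of 0.57. Summed over the list, these transcripts reached 5476, 5652 and 5970 CPM in Peyer's patch Pool, 392 and 399, against 3806, 3903 and 3595 CPM in spleen Pool, 392 and 399. All 3 Peyer's patch libraries lay above all 3 spleen libraries.

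Gnl3, the nucleolar GTPase nucleostemin (chromosome 14, 31012433 to 31019152 in GRCm38), had 125, 94.2 and 129 CPM in Peyer's patch Pool, 392 and 399, against 57.4, 48.4 and 45.5 CPM in spleen. Its log2 change was 1.20 ± 0.17 (SE, n = 3 per tissue; adjusted p = 7.46e-05). Ncl, which encodes nucleolin and is needed for ribosomal RNA synthesis, had 603, 582 and 750 CPM in Peyer's patch and 353, 358 and 302 CPM in spleen (log2 change 0.94 ± 0.15, adjusted p = 0.000235). Neither gene's tissues overlapped. Rrp1b, a processing factor of the large ribosomal subunit, rose by 1.27 ± 0.19 on the log2 scale, and Rrp9 and Nolc1, which act on nucleolar RNA, rose by 0.85 ± 0.14 and 0.86 ± 0.16. Npm1, the nucleolar chaperone nucleophosmin, had 924, 1157 and 1276 CPM in Peyer's patch and 726, 799 and 737 CPM in spleen (0.57 ± 0.14). Srm, the enzyme that makes spermidine, had 142, 129 and 144 CPM in Peyer's patch and 70.5, 81.5 and 63.8 CPM in spleen (0.95 ± 0.15). Myc itself had 204, 201 and 192 CPM in Peyer's patch and 143, 110 and 94.8 CPM in spleen (0.78 ± 0.18, adjusted p = 0.00538). Its Peyer's patch libraries were close to each other, and all lay above the spleen libraries. With the 6 libraries alone 14 members rose, and without Peyer's patch 399 and Pool 15 rose and 1 fell. In addition 1 member fell without Peyer's patch Pool and 1 without both pools.

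Few genes of the ribosome's own proteins or of respiration passed. Of 55 tested cytosolic ribosomal protein genes, 1 rose and 0 fell, with a median log2 difference of 0.11. Of 33 tested nuclear genes of oxidative phosphorylation, 1 rose and 0 fell, and 6 rose with the library names as a replicate block. Without Peyer's patch Pool 3 of these rose and 1 fell, and without spleen Pool 0 rose. The ribosomal protein call was lost without spleen 392.

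The E-box CACGTG, the core sequence bound by Myc with Max and by related factors, was sought on both strands of windows running from 250 bases before to 50 bases after each gene's start, as given by RefSeq for GRCm38.p6. Windows were held for 8226 of the 11419 genes. The E-box occurred in 12.2% of all of these windows, in 129 of 669 windows of genes that were higher in Peyer's patch (19.3%) and in 63 of 602 windows of genes that were lower (10.5%). It occurred in 10 of 27 windows of the Myc and ribosome biogenesis list (37%), and in 6 of the 19 of these whose gene rose. A match describes the letters of the window and is not evidence of binding. Stretches around the E-box are printed for 3 of those 6 genes, each with an E-box wholly before the gene's start. Eif4a1 is the helicase of the translation initiation complex, Eif4e its cap-binding subunit and Nop2 a ribosomal RNA methyltransferase. The capitals mark the E-box, and each stretch runs 5′ to 3′ on the strand of its gene.
Eif4a1 (chr11:69672572-69672647, minus strand): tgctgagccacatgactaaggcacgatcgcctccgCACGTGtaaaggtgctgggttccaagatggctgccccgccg
Eif4e (chr3:138527018-138527080, plus strand): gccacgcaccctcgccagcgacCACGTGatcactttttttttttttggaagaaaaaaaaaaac
Eif4e (chr3:138527169-138527244, plus strand): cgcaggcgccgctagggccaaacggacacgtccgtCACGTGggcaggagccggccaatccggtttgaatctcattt
Nop2 (chr6:125131788-125131863, plus strand): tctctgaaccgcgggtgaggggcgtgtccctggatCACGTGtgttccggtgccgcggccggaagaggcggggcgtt
The E-box began 189 bases before the start of Eif4a1, 228 and 64 bases before that of Eif4e and 60 bases before that of Nop2. Eif4a1 had 826, 812 and 812 CPM in Peyer's patch and 558, 569 and 550 CPM in spleen (log2 change 0.55 ± 0.13, adjusted p = 0.00556). Eif4e rose by 0.51 ± 0.14 and Nop2 by 0.56 ± 0.18 on the log2 scale. The Eif4e call was lost without spleen Pool or spleen 399, and the Nop2 call without Peyer's patch Pool, Peyer's patch 392, spleen 392 or spleen 399. These 3 genes were chosen for their windows after their values were seen.

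Genes of sterol and fatty acid synthesis formed the next group. Of 31 tested members 14 rose and 1 fell, with a median log2 difference of 0.78. Idi1, the isopentenyl diphosphate isomerase of the mevalonate pathway (chromosome 13, 8885501 to 8892451), had 135, 200 and 225 CPM in Peyer's patch Pool, 392 and 399, against 40.8, 98.6 and 74.1 CPM in spleen (log2 change 1.40 ± 0.26, adjusted p = 0.00102). In both tissues the Pool library was the lowest, and the tissues did not overlap. Fdps, which makes farnesyl diphosphate, rose by 1.12 ± 0.26 on the log2 scale, and Cyp51, which demethylates lanosterol, by 1.10 ± 0.26. Insig1, the endoplasmic reticulum protein that holds back the sterol sensor, had 89.4, 126 and 131 CPM in Peyer's patch and 32.7, 76.9 and 45.4 CPM in spleen (1.17 ± 0.26). Fasn, the fatty acid synthase, had 74.9, 95.1 and 110 CPM in Peyer's patch and 44.7, 52.8 and 41.4 CPM in spleen (1.01 ± 0.21).

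Scd1, the desaturase that makes oleate, was the member that fell, named after its value was seen, with 603, 770 and 721 CPM in Peyer's patch and 986, 892 and 930 CPM in spleen (log2 change -0.42 ± 0.13, adjusted p = 0.0372). That call was lost when any 1 of Peyer's patch Pool, Peyer's patch 399, spleen Pool and spleen 399 was left out. The number of members that rose was 6 with the 6 libraries alone, 7 without spleen Pool, 9 without spleen 399 and 7 without Peyer's patch 399 and Pool, where the median was 0.92. Enterocytes also make sterols and fatty acids, and the part of the enterocyte transcripts given above was not tested. Peyer's patch 392, whose enterocyte sum was the lowest of its tissue at 269 CPM, had the highest sum of the sterol list, 3988 CPM, against 2749 CPM in Pool and 3698 CPM in 399. The spleen sums were 2501, 3072 and 2852 CPM in Pool, 392 and 399, so that Peyer's patch Pool lay within the spleen range on this sum.

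The motif CCAAT, part of the promoters of many sterol genes, occurred on either strand of 18 of 20 windows of the sterol list (90%) and of 43.8% of all windows. The letters TCACNCCAC, the core of a sterol regulatory element, occurred in 1 of the 20, that of Hmgcs1, and in 1.3% of all windows. Hmgcs1 makes the precursor of mevalonate and is printed as the example of a sterol element that a script found in a member that rose. The capitals mark the element, which begins 137 bases before the gene's start.
Hmgcs1 (chr13:119690179-119690257, plus strand): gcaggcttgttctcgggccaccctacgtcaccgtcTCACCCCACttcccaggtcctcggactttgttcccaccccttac
Hmgcs1 had 93.5, 177 and 201 CPM in Peyer's patch and 47.9, 105 and 95.4 CPM in spleen (log2 change 0.93 ± 0.28, adjusted p = 0.0274). Its Peyer's patch Pool library lay below 2 spleen libraries, so the tissues overlapped, and the call was lost when any 1 of spleen Pool, Peyer's patch 392 and Peyer's patch 399 was left out.

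**Figure D2:**
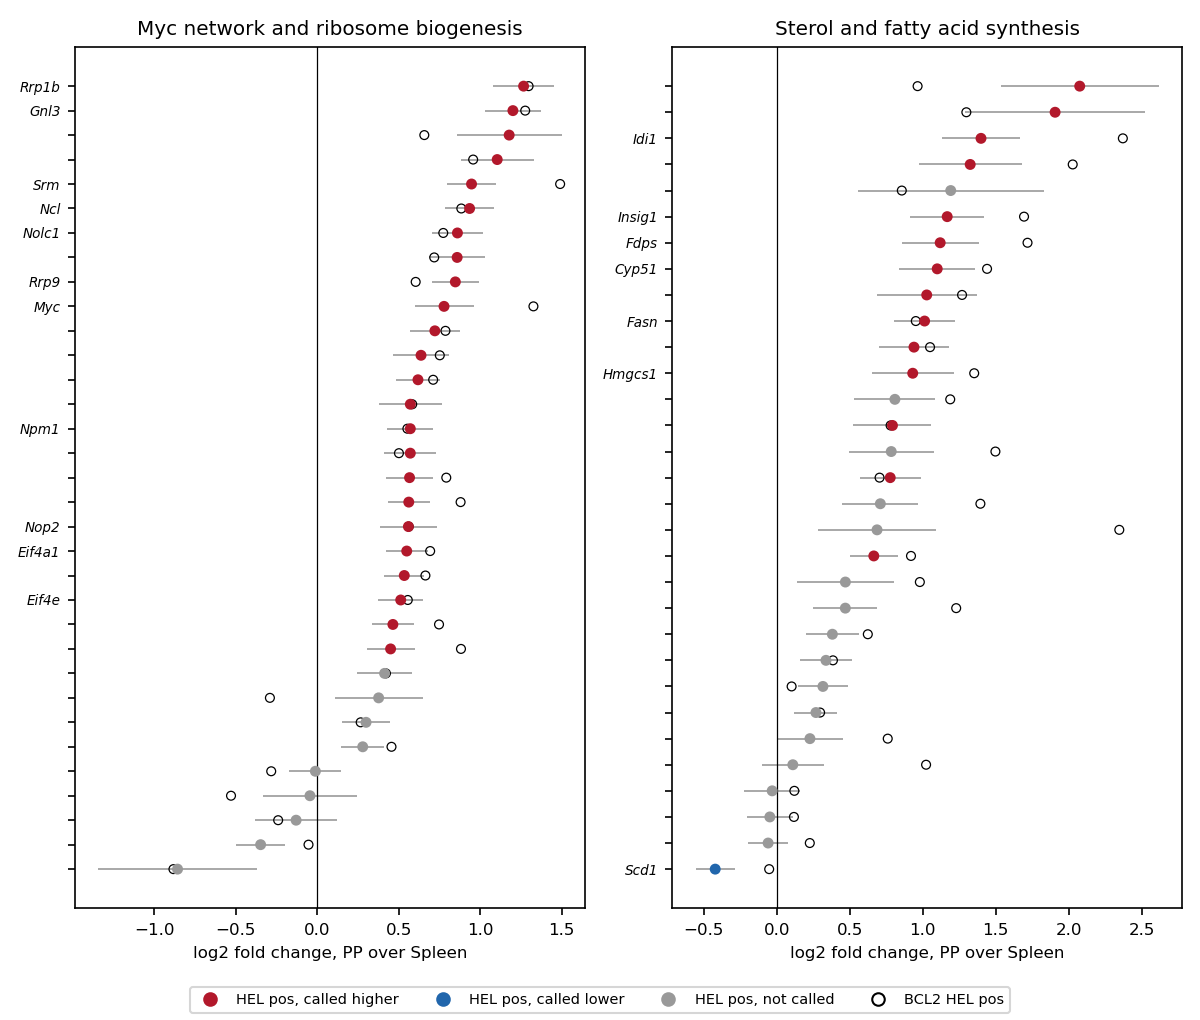
Log2 difference, Peyer's patch minus spleen, of each tested member of the Myc network and ribosome biogenesis list and of the sterol and fatty acid list, with bars for the SE (n = 3 per tissue), and open circles for BCL2 HEL pos cells, with names shown for members described in the text. Filled points of HEL pos cells are coloured by whether they passed the test, and 24 of 33 and 14 of 31 lie to the right as called.

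Genes of amino acid supply and of the folate-linked carbon cycle also moved in 1 direction. Of 30 tested members of this list, which holds targets of the stress factor ATF4, 10 rose and 0 fell, with a median log2 difference of 0.42. Shmt1, the cytosolic serine hydroxymethyltransferase, had 64.9, 54.2 and 69.5 CPM in Peyer's patch and 17.7, 28.4 and 13.1 CPM in spleen (log2 change 1.68 ± 0.23, adjusted p = 5.71e-05). Its mitochondrial counterpart Shmt2 had 199, 189 and 225 CPM in Peyer's patch and 108, 116 and 136 CPM in spleen (0.77 ± 0.13). The tissues did not overlap for either enzyme. Slc7a6, a carrier of basic amino acids, rose by 1.01 ± 0.14, and Slc38a2, a carrier of small neutral amino acids, by 0.73 ± 0.17. The count was 6 with the 6 libraries alone, 6 without spleen 399 and 4 without Peyer's patch 399 and Pool, and 1 member fell without Peyer's patch Pool. The letters TGATGNAA, an ATF4 element, occurred in 6 of 25 windows of the list (24%) and 2.91% of all windows, but in 1 of the 9 windows whose gene rose.

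Transcripts of cell division did not rise in the main fit. Of 30 tested mitosis genes 0 rose and 2 fell, with a median log2 difference of -0.58, and of 37 tested DNA replication genes 0 rose and 3 fell. These calls were 6.67% and 8.11% of the lists, against 7.43% of all genes tested called lower and 15.4% called in either direction. Mki67, a marker of cycling cells, had 4.93, 1.79 and 2.41 CPM in Peyer's patch and 7.72, 5.6 and 3.39 CPM in spleen and did not pass the test (adjusted p = 0.525). Both tissues were low in it, and they overlapped. Nusap1, a spindle protein, fell by 2.50 on the log2 scale (SE 0.53), with 1.59 to 1.72 CPM in Peyer's patch and 6.35 to 11 CPM in spleen. Rfc2, a subunit of the clamp loader, had 92.9, 100 and 82.6 CPM in Peyer's patch and 169, 155 and 163 CPM in spleen (-0.82 ± 0.12, adjusted p = 6.57e-05), and Pold1, the catalytic subunit of DNA polymerase delta, fell by 0.68 on the log2 scale (SE 0.14). Among 24 tested genes of the G1 phase 2 rose and 5 fell. Cdk4, a kinase that starts the cycle, had 293, 261 and 260 CPM in Peyer's patch and 167, 182 and 177 CPM in spleen (0.63 ± 0.11). Ccnd3, a cyclin partner of that kinase, went the other way, with 130, 108 and 85.5 CPM against 246, 232 and 229 CPM (-1.13 ± 0.19), and E2f2 fell by 1.60 (SE 0.26). Gadd45g, a growth arrest and stress gene, rose by 1.72 ± 0.21. With the replicate block 4 mitosis genes fell and 0 rose, and 5 replication genes fell and 1 rose. There 4 genes of the G1 phase rose and 7 fell. Without Peyer's patch Pool 4 mitosis genes and 5 replication genes fell, and without Peyer's patch 399 there were 4 mitosis genes that fell and 1 that rose. Without spleen Pool 1 mitosis gene fell. There were 5 replication genes that fell without Peyer's patch 392.

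Genes that read gut metabolites and retinoids were few but held some of the largest changes. Of 21 tested members 3 rose and 3 fell, which is 28.6% of the list, against 15.4% of all genes tested. Ahr, the receptor for dietary and microbial indoles (chromosome 12, 35497974 to 35535038), had 118, 61.8 and 77.4 CPM in Peyer's patch Pool, 392 and 399, against 11.7, 14.8 and 7.51 CPM in spleen. Its log2 change was 2.92 ± 0.30 (adjusted p = 2.86e-06), and every Peyer's patch library lay far above every spleen library. Dhrs3, which turns retinal back to retinol and is induced by retinoic acid, had 42.8, 41.1 and 47.2 CPM in Peyer's patch and 4.47, 6.05 and 2.95 CPM in spleen (3.28 ± 0.37, adjusted p = 5.16e-06). The 3 Peyer's patch libraries were close to each other in Dhrs3, and their enterocyte sums were 269 to 914 CPM. The part of enterocyte transcripts in the Dhrs3 difference was not tested. Rara, a retinoic acid receptor, also passed, a call lost without Peyer's patch 399. Ffar2, a receptor for short-chain fatty acids, went the other way. Its log2 change was -4.63 to -3.38 over the other settings, and its call was kept whenever 1 library was left out. Abcg1 and Tsc22d3 also fell, and both calls were lost when some single libraries were left out. The count of members that rose was 5 without spleen Pool, 5 without Peyer's patch 392 and 5 with the replicate block, and 1 member fell when both pools were left out. The core of the Ahr element, GCGTG, occurred in 56.3% of all windows, too many for its presence to set genes apart.

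Feedback on receptor signals was split between genes that rose and genes that fell. Dusp4, a nuclear phosphatase that switches off MAP kinases (chromosome 8, 34807297 to 34819894), had 46.8, 45.7 and 36.2 CPM in Peyer's patch and 1.45, 1.36 and 3.68 CPM in spleen. The log2 change was 4.33 ± 0.28 (adjusted p = 9.78e-09). Rasa3, which turns off Ras and Rap, moved the opposite way, with 127, 215 and 189 CPM in Peyer's patch and 418, 527 and 437 CPM in spleen (-1.38 ± 0.17). Over the 22 tested MAP kinase feedback genes 3 rose and 6 fell, and 5 rose with the replicate block, while 2 fell with the 6 libraries alone, 3 without both pools and 3 without Peyer's patch 399 and Pool.

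Camkk1, the kinase that activates calmodulin-dependent kinases (chromosome 11, 73019008 to 73042073), had 85.1, 61.5 and 38.3 CPM in Peyer's patch and 2.24, 2.42 and 0.884 CPM in spleen (log2 change 5.04 ± 0.41, adjusted p = 7.22e-08). Kcnn4, the calcium-activated potassium channel of lymphocytes, had 74.5, 76.5 and 62.2 CPM in Peyer's patch and 40.6, 42.7 and 27.5 CPM in spleen (0.95 ± 0.17). Atp2a3, a pump that returns calcium to the endoplasmic reticulum, had 377, 473 and 316 CPM in Peyer's patch and 823, 939 and 821 CPM in spleen (-1.15 ± 0.15). Neither Kcnn4 nor Atp2a3 overlapped between tissues, and Camkk1 was chosen among genes without overlap. Over 29 tested calcium genes 4 rose and 3 fell, which is 24.1% of the list, against 15.4% of all genes tested. The number that rose was 2 without Peyer's patch Pool or without spleen 399, and the number that fell was 6 without Peyer's patch 392 and 5 with the replicate block.

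Of 29 tested NF-kappaB genes 8 rose and 4 fell. Rel, the c-Rel subunit used by activated B cells, had 195, 167 and 224 CPM in Peyer's patch and 121, 96.8 and 104 CPM in spleen (log2 change 0.87 ± 0.14). Nfkbiz, a nuclear partner of the p50 subunit, rose by 0.99 ± 0.15. The number that fell was 2 without spleen Pool and 0 without Peyer's patch 399 and Pool. Among 30 tested phosphoinositide pathway genes 2 rose and 0 fell, a share below the 15.4% of all genes tested, and without spleen Pool or with the 6 libraries alone 0 rose.

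Rgs1, which shortens chemokine receptor signals, had 24.9, 27.2 and 26.4 CPM in Peyer's patch and 1.01, 1.97 and 0 CPM in spleen (log2 change 4.71 ± 0.54, adjusted p = 6.66e-06). Rgs16, of the same family, had 5.65, 2.38 and 8.27 CPM in Peyer's patch and no count in any spleen library. Of 16 tested RGS genes 5 rose and 3 fell, which is 50% of the list, against 15.4% of all genes tested. The number that rose was 3 with the 6 libraries alone, while 1 fell without spleen 399 and 0 without Peyer's patch 399.

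Ubiquitin ligases and their adaptors contributed some of the deepest falls. Klhl14, a cullin adaptor expressed in B cells, had 8.12, 7.44 and 8.45 CPM in Peyer's patch and 51.6, 50.2 and 41.8 CPM in spleen (log2 change -2.58 ± 0.24, adjusted p = 6.58e-07). Nedd4, a ligase acting on membrane proteins, had 18.5, 33.2 and 12.9 CPM in Peyer's patch and 133, 125 and 115 CPM in spleen (-2.52 ± 0.34). Both were tight within spleen, and both were chosen among genes without overlap. The Deltex genes, which act in the Notch pathway, moved apart. Dtx4 had 30.6, 29 and 31.2 CPM in Peyer's patch and 6.82, 4.39 and 0.589 CPM in spleen (2.90 ± 0.40), while Dtx1 had 119, 92.7 and 77.9 CPM in Peyer's patch and 327, 145 and 251 CPM in spleen (-1.32 ± 0.22). Of 23 tested ligases linked to tolerance 3 rose and 4 fell, which is 30.4% of the list, against 15.4% of all genes tested. The number that rose was 1 without spleen 392, and the number that fell was 7 without Peyer's patch Pool.

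Immediate early genes outside the Egr and Nr4a families did not move together. Jun, a subunit of AP-1, had 33.3, 42.6 and 29.5 CPM in Peyer's patch and 92.9, 87.7 and 86.9 CPM in spleen (log2 change -1.34 ± 0.22). Batf, which pairs with Jun proteins and is needed for antibody class switching, had 97.5, 75.4 and 79.3 CPM in Peyer's patch and 39.8, 31.9 and 31.7 CPM in spleen (1.29 ± 0.16). Neither overlapped. Over 26 tested AP-1 and immediate early genes 3 rose and 5 fell, and with the replicate block 5 rose and 8 fell. The number that fell was 3 when any 1 of Peyer's patch Pool, Peyer's patch 399, spleen 392 and spleen 399 was left out.

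Among genes that place B cells and hold them to vessels and stroma, more fell than rose. Of 26 tested positioning receptors 6 rose and 9 fell, with a median log2 difference of -0.37, and of 24 tested integrins and adhesion molecules 4 rose and 8 fell, with a median of -0.38. Cd47, a signal that restrains phagocytosis, had 239, 258 and 256 CPM in Peyer's patch and 513, 474 and 387 CPM in spleen (log2 change -0.87 ± 0.12). Ccbp2, a receptor that scavenges inflammatory chemokines, had 3.33, 4.76 and 2.93 CPM in Peyer's patch and 40.8, 24.1 and 39 CPM in spleen (-3.23 ± 0.55). The tissues did not overlap for Cd47, and Ccbp2 was chosen among genes without overlap. Ccr6, the receptor for the chemokine made by the epithelium over the follicles, moved the opposite way, with 279, 206 and 237 CPM against 144, 80.3 and 119 CPM (1.07 ± 0.22). Among positioning receptors 3 rose without spleen 399 and 3 without both pools, and 4 fell without both pools and 5 with the 6 libraries alone. Among adhesion molecules 5 fell with the 6 libraries alone and 4 without Peyer's patch 399 and Pool.

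The machinery of movement followed. Of 35 tested small GTPase and motility genes 1 rose and 12 fell, with a median log2 difference of -0.31. Fgd2, an exchange factor for Cdc42 in antigen-presenting cells (chromosome 17, 29360914 to 29379661), had 146, 200 and 132 CPM in Peyer's patch and 549, 730 and 598 CPM in spleen (-1.97 ± 0.20, adjusted p = 1.59e-06). Rasgrp2, the exchange factor that turns on Rap1 for integrin adhesion, had 76.8, 119 and 112 CPM in Peyer's patch and 215, 285 and 251 CPM in spleen (-1.28 ± 0.17). Rassf5, which links Rap1 to integrins, fell by 0.83 (SE 0.12). Rasgrp3, an exchange factor for Ras, was the member that rose, at 227, 221 and 208 CPM in Peyer's patch and 143, 111 and 183 CPM in spleen (0.59 ± 0.15, adjusted p = 0.0113), a call lost without spleen 392. The number that fell was 7 with the 6 libraries alone, 7 without both pools and 4 without Peyer's patch 399 and Pool.

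In a list of annexins, S100 genes and other genes such as Vim, Ahnak and Crip1, 0 rose and 10 of 25 tested members fell. The median log2 difference was -0.55. The summed level of this list was 7317, 10483 and 11000 CPM in Peyer's patch Pool, 392 and 399, against 11620, 14005 and 14451 CPM in spleen. In both tissues Pool was lowest, and the highest Peyer's patch sum lay just under the lowest spleen sum. Anxa6, which binds membranes in a calcium-dependent way (chromosome 11, 54979108 to 55033445), had 131, 200 and 107 CPM in Peyer's patch and 348, 401 and 378 CPM in spleen (-1.36 ± 0.17, adjusted p = 2.39e-05). Vim, the intermediate filament vimentin, had 64.2, 112 and 107 CPM in Peyer's patch and 211, 362 and 327 CPM in spleen (-1.66 ± 0.23). Ahnak, a giant scaffold that partners S100 proteins, fell by 1.58 (SE 0.25), and Crip1, a small zinc-binding protein, by 1.21 (SE 0.22). With the replicate block 16 members fell, and without Peyer's patch 399 and Pool 4 fell, with a median of -0.33.

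Of 16 tested tetraspanins, which organise receptors in the membrane, 1 rose and 6 fell. Cd81, a tetraspanin of the B cell surface, had 245, 268 and 334 CPM in Peyer's patch and 661, 445 and 612 CPM in spleen (log2 change -1.02 ± 0.16). Tspan15, which guides the protease ADAM10, had 3.91, 0.595 and 0.69 CPM in Peyer's patch and 45.7, 13.5 and 20 CPM in spleen (-3.89 ± 0.66). The tissues did not overlap for either gene, and in both tissues Tspan15 was highest in the Pool library.

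Of 21 tested adenosine and nucleotide genes 2 rose and 6 fell. Pde2a, a phosphodiesterase that breaks down cyclic nucleotides, had 59.4, 64.1 and 50.5 CPM in Peyer's patch and 186, 181 and 184 CPM in spleen (log2 change -1.66 ± 0.20, adjusted p = 1.02e-05). Its libraries were close within each tissue and far from the other tissue. Without Peyer's patch 399 the number that fell was 3.

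**Figure D3:**
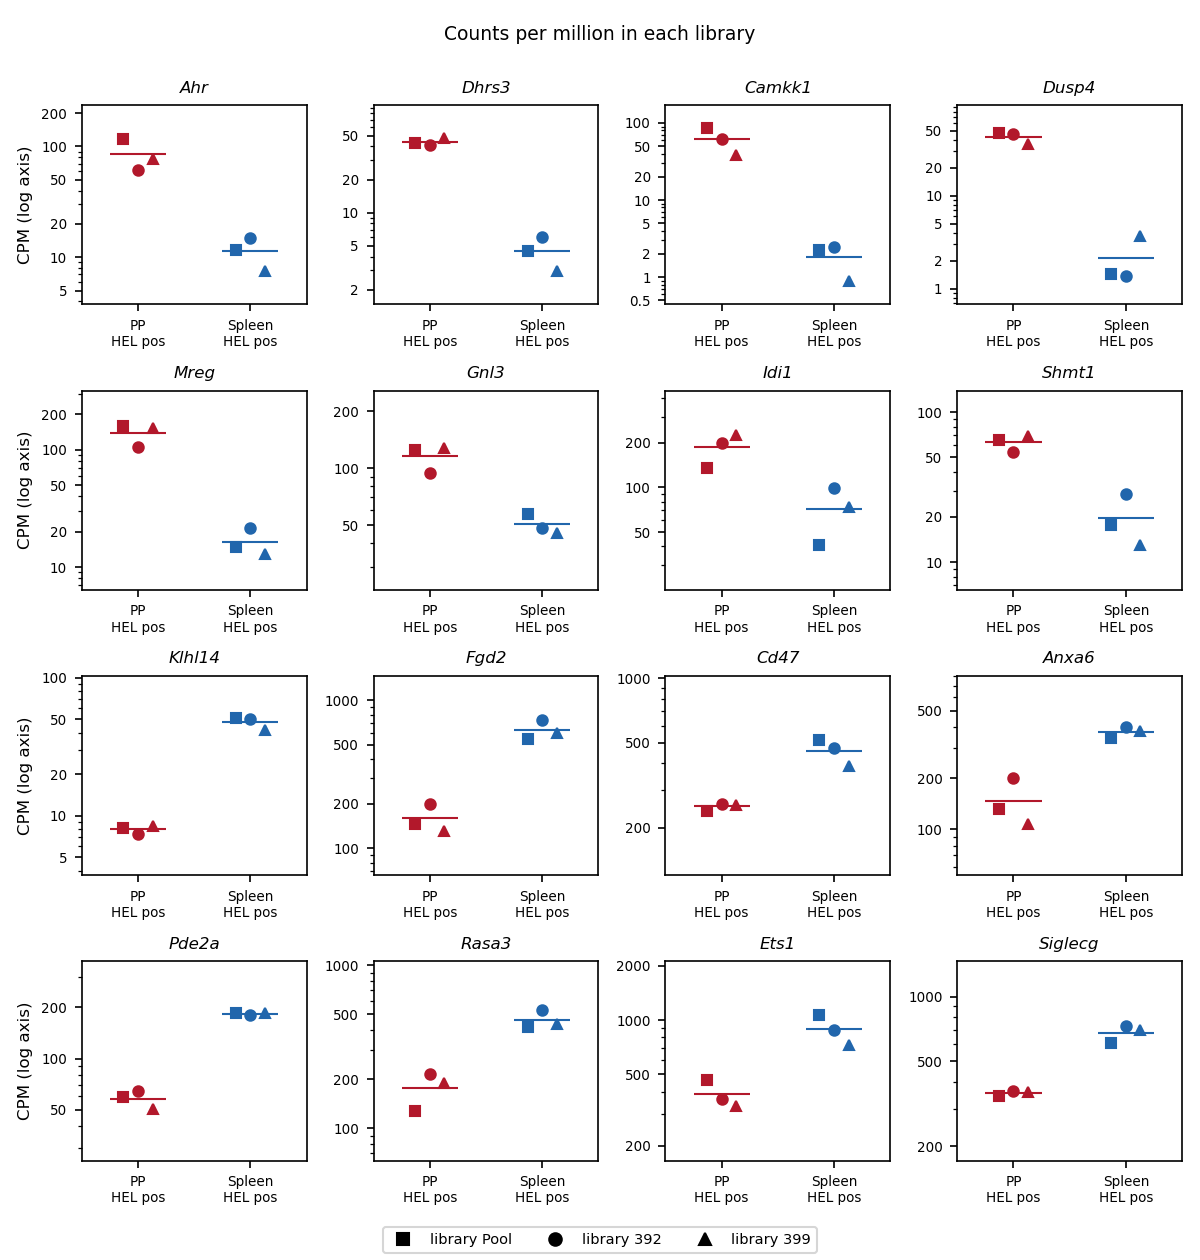
CPM of 16 genes in each library on log axes, Peyer's patch HEL pos to the left and spleen HEL pos to the right of each panel, with squares for Pool, circles for 392, triangles for 399 and a line for the mean. In each panel the 3 Peyer's patch libraries lie on 1 side of the 3 spleen libraries, above them for 8 genes from Ahr to Shmt1 and below them for 8 genes from Klhl14 to Siglecg.

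Among inhibitory receptors 6 of 24 tested genes rose and 8 fell, which is 58.3% of the list, against 15.4% of all genes tested. Siglecg, a sialic acid receptor that dampens the antigen receptor, had 344, 364 and 359 CPM in Peyer's patch and 607, 730 and 702 CPM in spleen (log2 change -0.93 ± 0.11, adjusted p = 1.34e-05). Ceacam1, an adhesion receptor with inhibitory motifs, had 51.7, 68.7 and 50.2 CPM in Peyer's patch and 128, 117 and 113 CPM in spleen (-1.07 ± 0.14). Fcgr2b, the inhibitory receptor for IgG, fell by 0.76 (SE 0.12) and Cd22, another sialic acid receptor, by 0.64 (SE 0.12). Cd5, which damps receptor signals and marks self-reactive B cells, rose, at 15.5, 9.37 and 10.5 CPM in Peyer's patch against 4.25, 3.78 and 2.5 CPM in spleen (1.74 ± 0.38). The number that fell was 5 with the 6 libraries alone and 5 without spleen 399, and the number that rose was 3 without both pools.

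Of 28 tested cytokine receptor chains 4 rose and 4 fell, and of 19 tested costimulatory and coinhibitory ligands 4 rose and 5 fell. These calls were 28.6% and 47.4% of the lists, against 15.4% of all genes tested. Il17ra, a chain of the interleukin 17 receptor, had 146, 141 and 94.5 CPM in Peyer's patch and 260, 261 and 280 CPM in spleen (log2 change -1.06 ± 0.14). Il10ra, the receptor for the regulatory cytokine interleukin 10, fell by 1.14 (SE 0.21). Cd40, the receptor for T cell help, had 136, 190 and 148 CPM in Peyer's patch and 246, 250 and 283 CPM in spleen (-0.71 ± 0.16). Slamf6, an adhesion receptor between lymphocytes, had 113, 122 and 107 CPM in Peyer's patch and 245, 234 and 254 CPM in spleen (-1.10 ± 0.12). In all 4 genes every Peyer's patch library lay below every spleen library. Without Peyer's patch Pool, or without spleen 392, 3 costimulatory and coinhibitory ligands fell.

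Transcription factors that define B cells fell more often than they rose, as B cell surface markers did. Of 31 tested factors 5 rose and 11 fell, with a median log2 difference of -0.30. Ets1, which holds back plasma cell formation, had 465, 363 and 331 CPM in Peyer's patch and 1061, 876 and 723 CPM in spleen (-1.20 ± 0.20). Spib, a relative of PU.1 in B cells, had 1082, 1255 and 856 CPM in Peyer's patch and 2343, 2244 and 1809 CPM in spleen (adjusted p = 0.000106). Ebf1, an early determinant of the lineage, fell by 0.56 (SE 0.11). Bach2, which keeps B cells from becoming plasma cells, was among those that rose, with 165, 133 and 143 CPM in Peyer's patch and 81.6, 103 and 81.9 CPM in spleen (0.73 ± 0.15). None of the 4 overlapped, and 3 factors rose without Peyer's patch 399 and Pool.

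Of 30 tested chromatin and DNA methylation genes 5 rose and 0 fell, while the median of the list was -0.07. The calls were 16.7% of the list. Of all genes tested, 15.4% were called in either direction and 7.94% were called higher. Dnmt3a, which sets new DNA methylation, had 89, 99.1 and 68.4 CPM in Peyer's patch and 40.4, 49.8 and 36.8 CPM in spleen (log2 change 1.02 ± 0.15). Hdac4, a histone deacetylase whose location depends on calcium signals, had 22.3, 19.2 and 14.7 CPM in Peyer's patch and 9.06, 6.81 and 4.71 CPM in spleen (1.44 ± 0.26). Kdm6b, a demethylase of histone H3, rose by 1.01 ± 0.23. The tissues did not overlap for any of the 3, and the number that rose was 3 without Peyer's patch 399 and Pool. With the replicate block, and likewise without Peyer's patch Pool, 2 members fell, and 1 fell without Peyer's patch 392.

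Antigen presentation was divided. Of 31 tested genes 3 rose and 8 fell. H2-Eb2, a class II beta chain, had 343, 489 and 402 CPM in Peyer's patch and 147, 116 and 149 CPM in spleen (log2 change 1.58 ± 0.16, adjusted p = 2.86e-06). Ciita, the master activator of class II genes, had 754, 774 and 624 CPM in Peyer's patch and 538, 419 and 488 CPM in spleen (0.58 ± 0.14), a call lost with the 6 libraries alone. Psmb9, a subunit of the immunoproteasome, fell by 0.53 (SE 0.10). H2-Eb2 belongs to a family of near-identical genes, so its counts may include or miss reads of relatives. The number that fell was 13 with the replicate block, 4 without spleen 399, 3 with the 6 libraries alone and 2 without Peyer's patch 399 and Pool.

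Of 26 tested heat shock chaperones 3 rose and 1 fell, which is 15.4% of the list and the same share as over all genes tested. Under the replicate block 10 rose. None fell without spleen Pool or without any 1 of the 3 Peyer's patch libraries. Hspa9, the mitochondrial chaperone mortalin, had 350, 321 and 270 CPM in Peyer's patch and 204, 185 and 178 CPM in spleen (log2 change 0.73 ± 0.13). Of 27 tested plasma cell and secretion genes 6 rose and 4 fell. Derl3, which removes misfolded proteins from the endoplasmic reticulum, rose to 47.4, 34.5 and 17.8 CPM in Peyer's patch, against 12, 14.7 and 13.1 CPM in spleen (1.34 ± 0.27). Txndc5, a disulfide isomerase of the same compartment, moved the other way, at 191, 191 and 155 CPM against 328, 400 and 356 CPM (-1.01 ± 0.15). With the replicate block 10 plasma cell and secretion genes rose, and without spleen 399 there were 3 that rose and 2 that fell. Of 29 tested glycosyltransferases 4 rose and 7 fell, and of 23 tested germinal centre genes 4 rose and 2 fell. These calls were 37.9% and 26.1% of the lists, against 15.4% of all genes tested. Among the germinal centre genes Basp1, a membrane protein linked to actin, rose to 8.7, 8.18 and 8.96 CPM in Peyer's patch, against 1.01, 0.605 and 2.21 CPM in spleen, and Nedd9, a scaffold of integrin signals, fell by 1.07 (SE 0.14). Without spleen 399, 2 genes of each of these lists rose.

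The largest single changes included receptors and secreted proteins of several kinds. Axl, a receptor for the bridging protein Gas6 on dying cells, had 42.5, 30.8 and 43.6 CPM in Peyer's patch and 1.34, 1.21 and 0.736 CPM in spleen (log2 change 5.11 ± 0.38, adjusted p = 2.85e-08). Cd63, a tetraspanin of late endosomes, had 11.7, 6.4 and 7.59 CPM in Peyer's patch and 0.224, 0 and 0.736 CPM in spleen (4.71 ± 0.50). Cd5l, a secreted scavenger receptor protein, had 19.1, 14.9 and 22.1 CPM in Peyer's patch and 1.45, 0.454 and 1.18 CPM in spleen (4.13 ± 0.64). All 3 were chosen among called genes without overlap. Il9r, a chain of the interleukin 9 receptor, fell by 2.86 on the log2 scale (SE 0.56), with 10, 1.79 and 14.8 CPM in Peyer's patch and 107, 19.5 and 65.5 CPM in spleen. In both tissues library 392 was lowest in it. Ngfr, the low-affinity neurotrophin receptor, had 3.19, 7.29 and 0 CPM in Peyer's patch and 27.1, 34.3 and 19.1 CPM in spleen (-2.91 ± 0.62). Rbp2, the retinol carrier of enterocytes, had 50.7, 12.6 and 41.5 CPM in Peyer's patch Pool, 392 and 399 and 2 counts in all spleen libraries together. Like the enterocyte sum, it was lowest in 392 among Peyer's patch libraries.

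The same contrast in BCL2 HEL pos cells, which shares no library with it but comes from the same fit, called 838 genes (7.34%). Of the 1756 genes called in HEL pos cells, 1608 had the same direction in BCL2 HEL pos cells. The share with the same direction over all genes tested was not computed. Genes called in both with the same direction numbered 543, which is 30.9% of the HEL pos calls and 64.8% of the BCL2 HEL pos calls, and 0 were called in opposite directions. In BCL2 HEL pos cells 21 of the Myc and ribosome biogenesis genes rose, with a median of 0.66, and 19 of the sterol genes rose, with a median of 0.98. Camkk1 rose there by 4.08 on the log2 scale and Dusp4 by 2.98. The difference between the HEL pos and BCL2 HEL pos contrasts passed the test for 1 gene (0.00876% of those tested), Hes1, a repressor induced by Notch, while 1083 genes had an unadjusted p below 0.05.

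HEL neg cells, sorted as 1 pool per tissue, showed part of the contrast. Camkk1 had 78.5 CPM in the Peyer's patch HEL neg pool and 5.78 CPM in the spleen HEL neg pool, and Dhrs3 had 32 CPM and 3.44 CPM in those pools. For Ahr the HEL neg pools had 16.1 CPM in Peyer's patch and 13.9 CPM in spleen, against 118 and 11.7 CPM in the HEL pos pools. The sterol list had a median log2 difference of 0.61 between HEL neg pools and 0.62 between HEL pos pools. The Myc and ribosome biogenesis list had a median of -0.16 between HEL neg pools and 0.40 between HEL pos pools. Over all genes these medians were -0.04 in HEL neg pools and -0.05 in HEL pos pools.

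A test of whether the tissue difference of HEL pos cells departs from that of HEL neg cells, chosen after seeing the data, has no replicate spread of its own on the HEL neg side, and each HEL neg pool is assumed to vary like the libraries of the other groups. It called 31 of 13710 genes (0.226%), 26 with a higher and 5 with a lower difference in HEL pos cells, and 1359 had an unadjusted p below 0.05. Mreg, a regulator of organelle transport named here after its values were seen (chromosome 1, 72159442 to 72212307), had 160, 106 and 152 CPM in Peyer's patch HEL pos libraries and 14.9, 21.3 and 12.8 CPM in spleen HEL pos libraries. The HEL neg pools had 16.9 CPM in Peyer's patch and 31.7 CPM in spleen, and the log2 difference between the contrasts was 3.98 ± 0.46 (adjusted p = 0.000226). Dusp4 also passed (3.25 ± 0.51, adjusted p = 0.00498), as did Axl (7.74 ± 1.16, adjusted p = 0.00432). For Axl the HEL neg pools had 0.335 CPM in Peyer's patch and 2.2 CPM in spleen. The Peyer's patch value lay near the count floor, so the size of the Axl difference is uncertain. Of the ribosome biogenesis genes Ncl passed, with 262 CPM in the Peyer's patch HEL neg pool and 434 CPM in the spleen HEL neg pool (1.64 ± 0.30, adjusted p = 0.0166). Npm1 passed as well (1.45 ± 0.29, adjusted p = 0.0277). Ahr (adjusted p = 0.0683), Camkk1 (adjusted p = 0.604) and Dhrs3 (adjusted p = 1.00) did not pass, which does not show that their contrasts were alike.

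**Figure D4:**
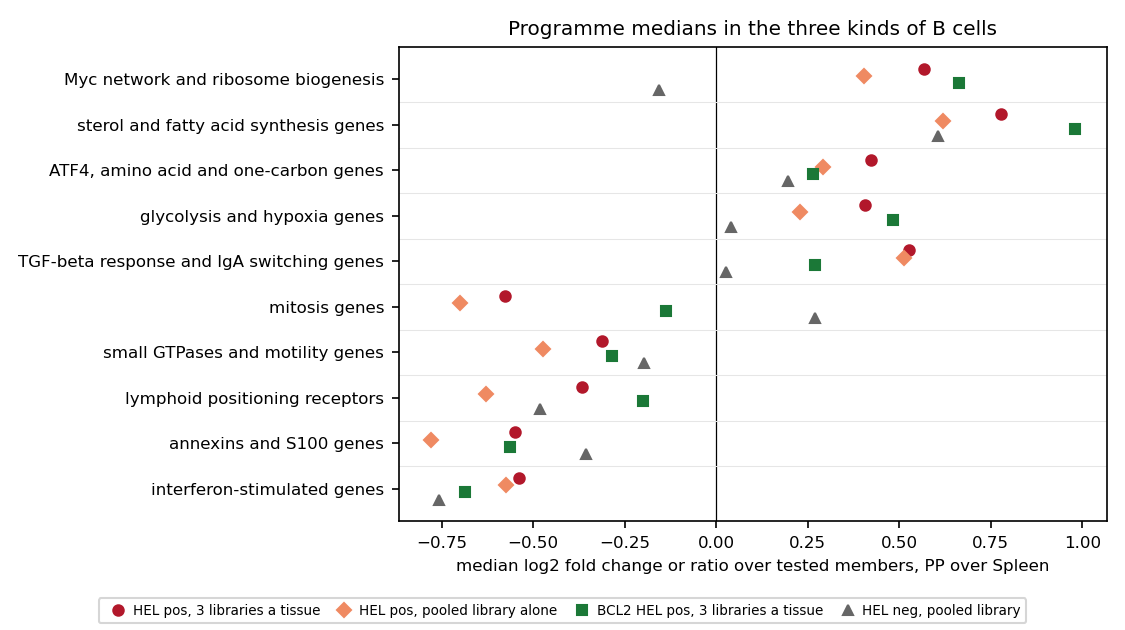
Median log2 difference, Peyer's patch minus spleen, over the tested members of 10 lists in HEL pos cells (3 libraries per tissue), in the HEL pos pools alone, in BCL2 HEL pos cells (3 per tissue) and in the HEL neg pools (1 per tissue). The Myc and ribosome biogenesis median is 0.57, 0.40 and 0.66 in the first 3 and -0.16 in HEL neg pools, while the sterol median lies between 0.61 and 0.98 in all 4.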

How the data were processed

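The values were raw counts per gene symbol, deposited by the authors as 1 table of 23337 symbols. Per the submitters' processing notes, STAR, HTSeq and DESeq2 were used with build mm10, with no roles or versions given. Per the labels' protocols, sorted cells went into TRIzol, and single-end reads came from an Illumina HiSeq. TruSeq and Nextera XT kits are both mentioned in the protocols, and the kit of each library is not stated. How the counting treated strand and shared reads is not given in the sources used here. In the table, 25 symbols had been turned into dates and match no gene name.

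From the counts, edgeR 4.0.16 in R 4.3.3 (with limma 3.58.1) fitted 18 libraries in 6 groups, which share 1 estimate of the spread. The groups were HEL pos cells and BCL2 HEL pos cells, each from Peyer's patch, spleen and mesenteric nodes. The fit used TMM scaling, filterByExpr, the quasi-likelihood test and Benjamini-Hochberg adjustment over 11419 genes. Called means an adjusted p below 0.05, and rose or fell is used of called genes. Values after ± are SE of log2 changes. CPM are counts scaled to a TMM-adjusted library total of 1000000, and values of 3 libraries are in the order Pool, 392, 399. HEL neg pools were compared as log2 ratios with 0.5 CPM added.

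Libraries with the same name (Pool, 392, 399) in both tissues deviated from their group means together. Their correlations across genes were 0.275, 0.176 and 0.119, against -0.206 to 0.0186 for other pairs. The names were therefore taken to pair the libraries in the replicate block, which called 2385 genes. The main fit did not use the pairing, so its SE, p-values and 1756 calls treat the libraries as independent. No libraries agreed within sampling noise. On simulated counts of this comparison (11140 genes) the edgeR test recovered 43.3%, 80.6% and 100% of genes changed 1.5-, 2- and 4-fold, with 11 false among 160 calls. Only genes well above the count floor were changed, so recovery of genes with few counts was not tested. The simulated spread followed its trend with expression rather than each gene's own, and libraries were not paired.

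The gene lists and the genes described were chosen with earlier results of these data known. Genes named are the 10 highest and 10 lowest called changes with a mean log2 CPM of at least 3 and libraries that do not overlap, up to 6 called members of each list and marked key genes. Some were left out for length, some items are not reported here, and Scd1, Rasgrp3, Eif4a1, Eif4e, Nop2, Mreg, Hes1, Mki67, Ms4a1 and Cd2, which the rule does not cover, were named after their values were seen. Alternatives were DESeq2 1.42.0, its size factors, no filter, the 6 libraries alone, the replicate block and leaving out libraries.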

Additional observations from a re-analysis of the deposited data

Results flagged for a closer look

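Hes1, a repressor induced by Notch, differed between HEL pos and BCL2 HEL pos cells in its tissue contrast, by edgeR's quasi-likelihood test of that difference. It had 38, 48.7 and 49.3 CPM in Peyer's patch HEL pos libraries and 97.2, 111 and 111 CPM in spleen HEL pos libraries (log2 change -1.23 ± 0.16, adjusted p = 2.52e-05), with no overlap. In BCL2 HEL pos cells the log2 difference was 0.31 ± 0.16 (adjusted p = 0.274). The difference between the contrasts was -1.54 ± 0.22 (adjusted p = 0.0088), with 3 libraries per tissue on each side. It was the only gene of those tested to pass.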

How the results depend on the processing

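The count of 1756 genes was 1765 with DESeq2's size factors, 2090 with DESeq2, 1958 with no filter on low counts and 2385 with the replicate block for library names. It was 800 with the 6 compared libraries alone (398 higher, 402 lower) and 1298 with those 6 and the replicate block. Leaving out 1 library at a time gave 1307 to 2135 calls, 639 to 1049 of them higher and 631 to 1086 lower. Without both pools 532 genes were lower in Peyer's patch, of 1185 called. Without Peyer's patch 399 and Pool, a setting chosen with earlier results known, 640 passed (361 higher, 279 lower), and the lone Peyer's patch library was assumed to vary like the other groups. Every called gene with a value kept its direction in the other settings, and 1749 of 1756 kept it in that one. Higher calls made up 46.8% to 56.4% of calls. Of 276 named genes that were called, 208 kept the call whenever 1 library was left out, and 132 did in every setting tried. The replicate block lost none of the 276 and called 41 more named genes. The causes of these shifts were not tested. Depth limits genes near 3 counts per library, and the standard errors cover the spread between libraries only.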
